A study of Mus musculus with 14 samples.

Results

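Microglia, the resident macrophages of the brain, release secreted factors that keep neurons, glia and vessels alive and that take part in repair after injury. The genes described here encode 10 such factors, namely Igf1, Pdgfa, Hbegf, Vegfb, Bdnf, Osm, Lif, Tgfb1, Grn and Gas6. They were chosen by name, with earlier results of these data known, and each was read from the array row annotated to that symbol alone. All 10 of the 10 were measured, by 1 array row each, among 19938 genes with such a row. The mean of 8 of them lay above background, taken as the 95th percentile (4.73 on the log2 scale) of the 1027 olfactory receptor genes on the array, which microglia are not known to use. Bdnf and Lif were below it on all 14 arrays.

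RNA came from microglia sorted directly from the cortex of the operated side of C57BL/6J mice (males, 12 to 14 weeks old), and 1 sample was hybridised per Affymetrix Mouse Gene 1.0 ST array. In ischaemia and reperfusion (I/R) the middle cerebral artery was blocked for 15 min and the brain was reperfused for 72 h. TLR4-/- mice contributed 3 I/R arrays (lettered B, C and D) and 3 sham-operated arrays (A, B, D). Wild-type mice contributed 4 I/R arrays (A to D) and 4 sham-operated arrays (also A to D). TLR4 is the receptor for bacterial lipopolysaccharide and for several molecules released by damaged tissue, and the design asks which I/R changes occur with and without it. The sources used here do not describe how the TLR4-/- allele was made, which cells lack the gene or which markers the sort used. The titles of the I/R samples carry the letters IPC, which no label explains. No label states whether samples are separate animals, so the scatter behind each p-value may be technical and describes these samples only.

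The deposited log2 signals had array medians of 4.93 to 5.12, and correlations between arrays of a group lay between 0.981 and 0.993. All 4 wild-type sham arrays correlated on average more closely with the TLR4-/- sham arrays than with one another, and all 3 TLR4-/- I/R arrays were likewise closer to wild-type I/R arrays than to one another. The gap was widest for wild-type sham array C (0.989 against 0.984) and TLR4-/- I/R array D (0.991 against 0.987), and where leaving out both changes a call of a gene named below, this is given beside it. Tlr4 itself gave signal in both genotypes, with log2 values of 7.62 to 8.40 on the TLR4-/- I/R arrays, against 8.14 to 8.48 on the wild-type I/R arrays, and of 8.15 to 8.47 on the TLR4-/- sham arrays, against 8.57 to 8.92 on the wild-type sham arrays. The TLR4-/- mean minus the wild-type mean was -0.28 after I/R (95% interval -0.61 to 0.06), with overlapping groups. After sham it was -0.46 (95% interval -0.79 to -0.12), without overlap. Neither difference between genotypes passed the test (limma adjusted p of 0.634 after I/R and 0.920 after sham). Whether the probes lie in the deleted part is not known here, and the genotype labels thus remain unchecked by the arrays. The 11 microglial marker genes measured (Cx3cr1, P2ry12, Tmem119, Csf1r and others) were all above background, with list means between 10.65 and 11.08 on all arrays.

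IGF-1 acts through the receptor tyrosine kinase IGF1R to support survival and growth, PDGF-A drives oligodendrocyte precursors, and HB-EGF, shed from the membrane, activates EGFR and ERBB4. OSM and LIF belong to the interleukin-6 family and signal through the shared subunit gp130 (Il6st) to JAK kinases and STAT3. TGF-beta is secreted in a latent form that must be activated, and in the brain it maintains the microglial state, while progranulin (Grn) serves lysosomes and Gas6 bridges dying cells to the TAM receptors Axl, Mertk and Tyro3.

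RefSeq promoter sequences (GRCm38.p6, 250 bases before to 50 bases after an annotated gene start) were at hand for 8 of the 10 genes, with 15 entries, and not for Hbegf and Osm. Both sequences shown are of factors whose level rose after I/R in wild type, on the strand of the gene, 5′ to 3′. The Igf1 window is chr10:87860861-87861160 on the plus strand, and the Pdgfa window, the more distal of 2 entries, is chr5:138994895-138995194 on the minus strand. Capitals mark the only match to a searched motif, an AP-1 motif that starts 37 bases before the Igf1 start.
Igf1 promoter: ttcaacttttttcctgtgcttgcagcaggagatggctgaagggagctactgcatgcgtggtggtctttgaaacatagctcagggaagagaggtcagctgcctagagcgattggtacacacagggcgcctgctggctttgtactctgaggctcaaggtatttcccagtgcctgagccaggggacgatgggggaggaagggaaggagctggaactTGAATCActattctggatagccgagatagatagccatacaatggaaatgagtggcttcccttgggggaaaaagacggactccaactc
Pdgfa promoter: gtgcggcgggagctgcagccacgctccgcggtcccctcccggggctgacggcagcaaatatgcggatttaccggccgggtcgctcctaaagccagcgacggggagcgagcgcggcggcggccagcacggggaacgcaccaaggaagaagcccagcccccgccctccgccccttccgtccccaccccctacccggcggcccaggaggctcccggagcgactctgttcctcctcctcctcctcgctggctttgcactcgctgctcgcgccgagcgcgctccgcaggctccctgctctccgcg
The windows differed in base composition, since the Igf1 window had a GC content of 52.3% and the Pdgfa windows 67% and 73.3%, against a median of 52.7% over all promoters. Motifs were searched on both strands as the letters TGANTCA (AP-1), TTCNNNGAA (GAS, bound by STAT factors), GAGGAAGT (PU.1) and TCACNTGA (CLEAR, bound by TFEB), as GAAA and GAAA with 2 bases between them (ISRE, bound by interferon-regulated factors) and as GGG and TTTCC with 2 bases between them (NF-kB), all picked after the sequences had been seen. Over 32851 promoters of 27025 genes, the share with a match was 7.81% for AP-1, 8.3% for GAS, 3.44% for ISRE, 1.63% for NF-kB, 3.2% for PU.1 and 4.18% for CLEAR. Grn and Vegfb each had a CLEAR match (211 and 70 bases before the start) and Lif an AP-1 match at 228 bases. Of the Bdnf entries, 1 had a GAS, 1 an AP-1 and 1 an ISRE match, and neither Pdgfa entry nor the Tgfb1 and Gas6 windows held any of the 6. A match describes these letters in this window and is no evidence that a factor binds.

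After I/R in TLR4-/- mice, transcripts of Igf1 rose and those of Hbegf fell, while the other 8 factors did not pass the test. The called share of the factors was 2 of 10 (1 higher, 1 lower), where 8.17% of all genes were called (5.04% higher and 3.13% lower) at a limma adjusted p under 0.05. In wild-type mice Igf1, Osm and Pdgfa rose and Hbegf fell, so that 4 of 10 passed (3 higher, 1 lower), where 9.78% of all genes were called (6.15% higher and 3.63% lower). No factor passed the test between the genotypes, where 0.0201% of all genes were called after I/R and 0.00502% after sham. None passed the test of the difference of the I/R changes, where 0% of all genes were called. The median change over the 10 factors was 0.11 in TLR4-/-, against -0.03 over all genes, and 0.12 in wild type, against -0.06 over all genes. I/R and sham arrays did not overlap for 4 of the 10 factors in TLR4-/-, against 23.6% of all genes, and for 5 of the 10 in wild type, against 15.6% of all genes.

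**Figure D1:**
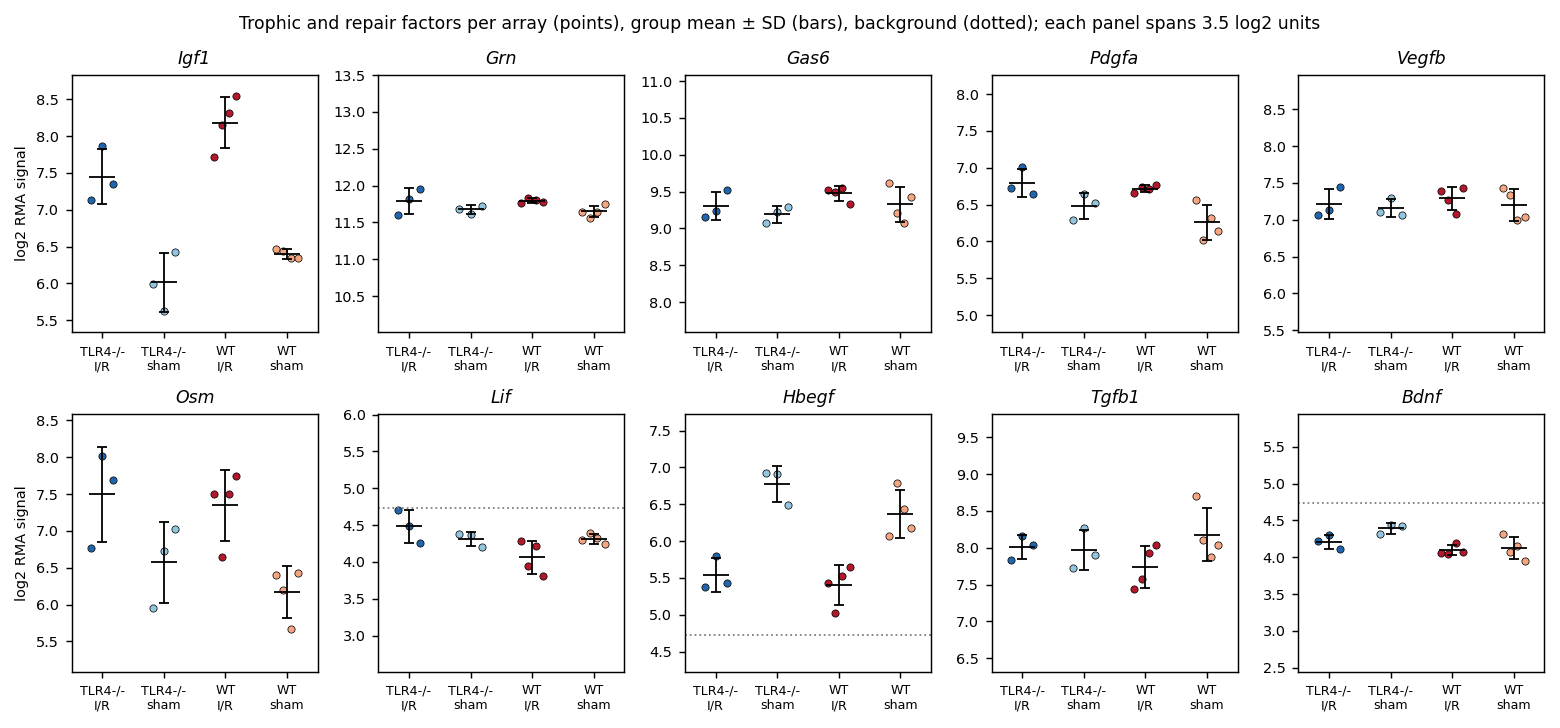
Log2 signal (vertical axis) of each of the 10 factors on each of the 14 arrays, by genotype and surgery, with bars for the group mean ± SD (n = 3 for both TLR4-/- groups, n = 4 for both wild-type groups) and a dotted line at the background level of 4.73 where it falls in the panel. Each panel spans the same number of log2 units. Igf1 stands higher on the I/R arrays of both genotypes, at 7.13 or above, than on the sham arrays, at 6.46 or below, and Hbegf stands lower, at 5.80 or below, than on the sham arrays, at 6.07 or above.

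Igf1 had the largest I/R change of the 10 factors in either genotype. Its log2 values were 7.13, 7.86 and 7.35 on the TLR4-/- I/R arrays, against 5.99, 5.63 and 6.43 on the TLR4-/- sham arrays. On the wild-type I/R arrays they were 7.72, 8.15, 8.32 and 8.54, against 6.46, 6.45, 6.34 and 6.35 on the wild-type sham arrays. Every I/R array was above every sham array of either genotype. TLR4-/- means were 7.45 ± 0.38 after I/R and 6.02 ± 0.40 after sham (SD, n = 3 each), a 2.70-fold increase (log2 1.43, SE 0.22, 95% interval 0.96 to 1.90, limma adjusted p = 0.0004766). Wild-type means were 8.18 ± 0.35 after I/R and 6.40 ± 0.06 after sham (SD, n = 4 each), a 3.44-fold increase (log2 1.78, SE 0.19, 95% interval 1.38 to 2.19, limma adjusted p = 6.648e-06). In both genotypes the step was larger than the spread between arrays. The change ranked 266th of 19938 genes from the highest in TLR4-/- and 198th in wild type. Both calls held under every alternative run, with adjusted p between 0.0002513 and 0.003878 in TLR4-/- and between 3.845e-06 and 8.166e-05 in wild type.

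Igf1 was also the factor with the lowest p between genotypes after I/R. It was lower on average in TLR4-/- by a log2 difference of -0.74 (SE 0.21, 95% interval -1.17 to -0.30), with an unadjusted limma p of 0.002599 and an adjusted p of 0.4444 over all genes. The value of 7.86 on TLR4-/- array C lay among the wild-type I/R values, and the other TLR4-/- I/R values, 7.13 and 7.35, lay below all of them. After sham surgery the difference was -0.38 (95% interval -0.82 to 0.05, adjusted p = 0.9205). The TLR4-/- I/R change minus the wild-type I/R change was -0.35 (95% interval -0.97 to 0.27, adjusted p = 0.9998), so the interval holds 0 as well as a change smaller by nearly 1 log2 unit in TLR4-/-.

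Markers of other cells moved with these changes. Of 11 monocyte genes measured, 9 were above background, and 6 rose after I/R in TLR4-/- and 7 in wild type, with median log2 changes of 1.35 and 1.27. Their mean level was 6.29 to 6.35 on the TLR4-/- I/R arrays, against 4.60 to 4.75 on the TLR4-/- sham arrays, and 6.31 to 6.79 on the wild-type I/R arrays, against 4.75 to 4.87 on the wild-type sham arrays. The genes that rose were S100a4, Vim, Ms4a4c, Cd44, Plac8 and Fn1 in both genotypes, and Chil3 by the test in wild type alone. Among them, Fn1, Vim and Cd44 can be expressed by activated macrophages too. Ccr2, the chemokine receptor that marks blood-derived monocytes, averaged 5.55 after I/R and 5.77 after sham in TLR4-/-, and 6.34 after I/R and 5.94 after sham in wild type, and passed the test in neither (adjusted p of 0.501 and 0.0763). Microglial markers fell in the same arrays, 5 of 11 in TLR4-/- and 7 of 11 in wild type, with list means of 10.65 to 10.80 on TLR4-/- I/R arrays, against 11.02 to 11.08 on TLR4-/- sham arrays, and 10.66 to 10.86 on wild-type I/R arrays, against 11.05 to 11.07 on wild-type sham arrays. In bulk RNA fewer cells of a type and less RNA per cell cannot be told apart, and the part of monocyte RNA in the changes of Igf1, Osm, Pdgfa and the related genes was not tested.

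Neutrophil markers were near background. Of 13 genes measured, 2 (Csf3r and Mpo) had a mean above it, and S100a8, Ngp and Ly6g did not. Csf3r passed as lower after I/R in TLR4-/-, and Cxcr2, below background, passed as higher in wild type. The list mean was 4.13 to 4.29 on TLR4-/- I/R arrays, against 4.21 to 4.37 on TLR4-/- sham arrays, and 4.03 to 4.87 on wild-type I/R arrays, against 4.13 to 4.36 on wild-type sham arrays, with wild-type I/R array C the highest. The mean of 10 markers of border-associated macrophages (Mrc1, Cd163, Lyve1 and others) was 6.79 to 7.26 on TLR4-/- I/R arrays, against 7.31 to 7.81 on wild-type I/R arrays. On sham arrays it was 6.71 to 7.43 in TLR4-/-, against 7.46 to 7.70 in wild type. The medians of the 10 differences between genotypes were -0.52 after I/R and -0.44 after sham, and none of the 10 passed the test in either. The differences of Igf1 between genotypes were -0.74 and -0.38, and a link between these and the border-associated macrophage markers was not tested. Markers of T and NK cells, astrocytes, oligodendrocyte lineage, neurons and endothelial cells had at most 2 genes higher and 1 lower in either genotype after I/R.

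Osm, a cytokine made by activated myeloid cells, rose in wild type and spread widely between arrays. Its log2 values were 6.77, 8.01 and 7.70 on the TLR4-/- I/R arrays, against 5.96, 6.73 and 7.03 on the TLR4-/- sham arrays, where I/R array B lay below sham array D. On the wild-type I/R arrays they were 7.50, 6.65, 7.50 and 7.75, against 6.40, 6.20, 5.66 and 6.42 on the wild-type sham arrays, with no overlap. TLR4-/- means were 7.49 ± 0.65 after I/R and 6.57 ± 0.55 after sham (SD, n = 3 each), a difference of 0.92 (95% interval 0.21 to 1.63) that did not pass (adjusted p = 0.1126). Wild-type means were 7.35 ± 0.48 after I/R and 6.17 ± 0.35 after sham (SD, n = 4 each), a 2.26-fold increase (log2 1.18, SE 0.29, limma adjusted p = 0.01483). The change in TLR4-/- minus that in wild type was -0.25 (95% interval -1.19 to 0.68), so the data do not set the genotypes apart for Osm.

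The wild-type call for Osm was lost without I/R array D (limma adjusted p = 0.05972), without sham array C (0.05079) and without both wild-type sham array C and TLR4-/- I/R array D (0.05988). In TLR4-/- a call was gained without I/R array B (log2 change 1.28, adjusted p = 0.02436) and with arrays weighted by quality (1.14, adjusted p = 0.03348).

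Lif, the relative of Osm that acts on neural stem cells and glia, gave signal at background. Values were 4.71, 4.48 and 4.26 on the TLR4-/- I/R arrays, against 4.37, 4.37 and 4.21 on the TLR4-/- sham arrays, and 4.28, 3.94, 4.22 and 3.81 on the wild-type I/R arrays, against 4.29, 4.40, 4.33 and 4.24 on the wild-type sham arrays. The groups overlapped in both genotypes. The I/R difference was 0.17 in TLR4-/- (95% interval -0.13 to 0.47, adjusted p = 0.5818) and -0.25 in wild type (95% interval -0.51 to 0.01, adjusted p = 0.2399). After I/R the level was higher in TLR4-/- by 0.42 (SE 0.13, limma adjusted p = 0.4817), and the difference of the I/R changes was also 0.42 (SE 0.19, adjusted p = 0.9998). All of these values lie below the background level, so they compare background signal.

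Of the genes of JAK and STAT signalling downstream of OSM and LIF, 9 were measured and 8 were above background. In each genotype 1 rose and none fell, where 8.17% of all genes were called in TLR4-/- and 9.78% in wild type. Bcl3, a STAT3 target and NF-kB cofactor, had a difference of 0.45 in TLR4-/- (adjusted p = 0.206) and rose by 0.68 in wild type (adjusted p = 0.0169), and its wild-type call was lost without I/R array C or D (adjusted p between 0.05735 and 0.06045), while a TLR4-/- call was gained without I/R array B (0.006242). Pim1, a kinase induced by STAT factors, rose by 0.95 in TLR4-/- (adjusted p = 0.008368) and had a difference of 0.56 in wild type (adjusted p = 0.0612), and its call was lost without TLR4-/- sham array A (0.05532). The wild-type difference passed under 6 of 16 alternatives, among them array weights, only the compared groups, no dim genes, and omission of sham array C alone or with TLR4-/- I/R array D (adjusted p between 0.0307 and 0.0469). Socs3, the feedback inhibitor of gp130 signalling, had differences of 0.57 in TLR4-/- and 0.60 in wild type that did not pass (adjusted p of 0.133 and 0.0562).

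Hbegf was the factor that fell in both genotypes. Its log2 values were 5.38, 5.80 and 5.43 on the TLR4-/- I/R arrays, against 6.93, 6.91 and 6.49 on the TLR4-/- sham arrays. On the wild-type I/R arrays they were 5.43, 5.03, 5.52 and 5.65, against 6.07, 6.80, 6.43 and 6.18 on the wild-type sham arrays. All I/R arrays were below all sham arrays of either genotype. Means were 5.54 ± 0.23 after I/R and 6.78 ± 0.25 after sham in TLR4-/- (SD, n = 3 each), a 2.36-fold lower level (log2 -1.24, SE 0.20, limma adjusted p = 0.0006815). In wild type they were 5.41 ± 0.27 after I/R and 6.37 ± 0.32 after sham (SD, n = 4 each), a 1.95-fold lower level (log2 -0.96, SE 0.17, limma adjusted p = 0.00135). Again the step was larger than the spread between arrays. By size this was the 16th lowest change of 19938 genes in TLR4-/- and the 43rd lowest in wild type, and both calls held under every alternative run (adjusted p of at most 0.005915 and 0.006776). The TLR4-/- change minus the wild-type change was -0.28 (95% interval -0.83 to 0.28), and after sham surgery the level was higher in TLR4-/- by 0.41 (SE 0.19, limma adjusted p = 0.9203), with overlapping groups.

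Pdgfa rose by a smaller step and in wild type alone by the test, although its interval in TLR4-/- covers similar values. Log2 values were 6.73, 7.01 and 6.64 on the TLR4-/- I/R arrays, against 6.29, 6.64 and 6.53 on the TLR4-/- sham arrays, and 6.65, 6.74, 6.70 and 6.76 on the wild-type I/R arrays, against 6.56, 6.02, 6.32 and 6.13 on the wild-type sham arrays. No I/R array overlapped a sham array of its own genotype, and the lowest I/R and the highest sham arrays nearly met. In TLR4-/- the means were 6.79 ± 0.19 after I/R and 6.49 ± 0.18 after sham (SD, n = 3 each), a difference of 0.31 (95% interval -0.00 to 0.62, limma adjusted p = 0.25). The wild-type means were 6.71 ± 0.05 after I/R and 6.26 ± 0.23 after sham (SD, n = 4 each), a 1.37-fold increase (log2 0.46, SE 0.13, 95% interval 0.19 to 0.72, limma adjusted p = 0.02898). The test of the difference of the changes gave -0.15 (95% interval -0.56 to 0.26). The wild-type call was lost when I/R array A, B, C or D, or sham array B or D, was left out (adjusted p between 0.05269 and 0.09326), and the log2 change was 0.38 to 0.56 over all fits with 1 array left out.

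**Figure D2:**
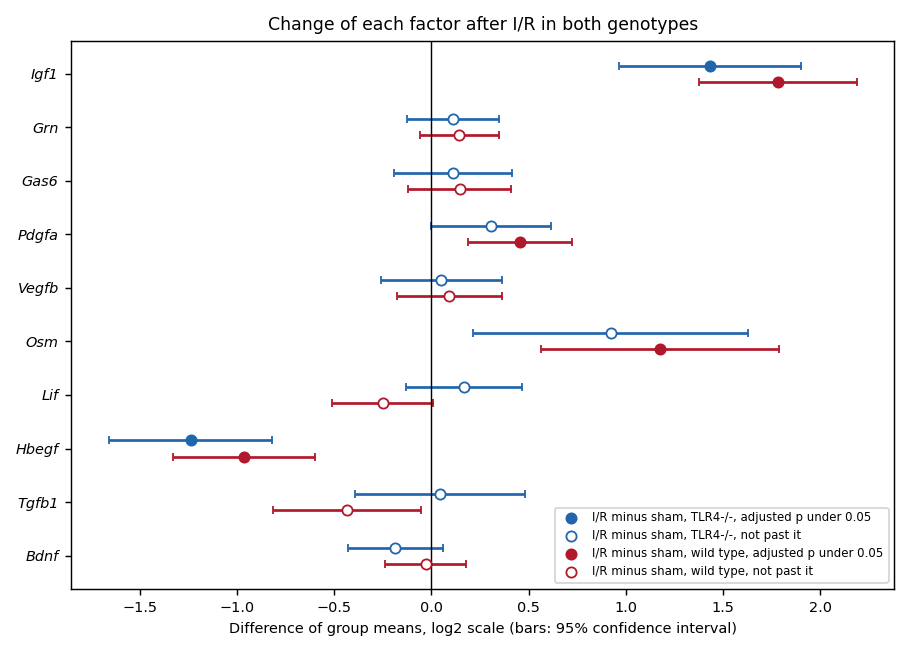
Change of each factor after I/R, as the I/R mean minus the sham mean on the log2 scale (horizontal axis), with 95% intervals, for TLR4-/- (blue) and wild type (red); filled points passed a limma adjusted p under 0.05. Igf1 lies at 1.43 in TLR4-/- and 1.78 in wild type, Hbegf at -1.24 and -0.96, and the intervals of the 2 genotypes overlap for all factors.

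Tgfb1, whose product holds microglia in their homeostatic state, did not pass the test in either genotype. Log2 values were 7.83, 8.16 and 8.04 on the TLR4-/- I/R arrays, against 7.73, 8.26 and 7.90 on the TLR4-/- sham arrays, and 7.44, 7.57, 7.93 and 8.03 on the wild-type I/R arrays, against 8.70, 8.10, 7.87 and 8.04 on the wild-type sham arrays. The groups overlapped in both. The TLR4-/- difference was 0.04 (95% interval -0.39 to 0.48, limma adjusted p = 0.9463), the wild-type difference -0.43 (95% interval -0.81 to -0.05, adjusted p = 0.1538), and the TLR4-/- change minus the wild-type change 0.48 (95% interval -0.10 to 1.06, adjusted p = 0.9998).

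Around Tgfb1, 22 genes of TGF-beta activation and signalling were measured and 17 were above background. In each genotype 1 was higher and 3 were lower, where 8.17% of all genes were called in TLR4-/- and 9.78% in wild type. Median changes were -0.19 in both, against -0.03 in TLR4-/- and -0.06 in wild type over all genes. Thbs1, thrombospondin-1, an activator of latent TGF-beta, rose by 1.05 in TLR4-/- (adjusted p = 0.001193) and by 0.76 in wild type (limma adjusted p = 0.004065). Smurf1, a ubiquitin ligase that limits the pathway, fell by 0.47 in TLR4-/- (adjusted p = 0.0171) and by 0.44 in wild type (adjusted p = 0.00837). Itgav, the integrin subunit that pairs with beta chains to release TGF-beta, fell by 0.52 in TLR4-/- (adjusted p = 0.0326) and by 0.41 in wild type (adjusted p = 0.0443). Ski, a repressor of SMAD transcription, fell by 0.32 in wild type (adjusted p = 0.0446). Smad3, the receptor-activated transcription factor, fell by 0.75 in TLR4-/- (adjusted p = 0.00235) and had a wild-type difference of -0.32 (adjusted p = 0.113). The calls of Thbs1 in both genotypes, of Smurf1 in wild type and of Smad3 in TLR4-/- held in all alternatives run. In wild type the Itgav call was lost on omitting any array but I/R array B and sham array D (adjusted p up to 0.158), and the Ski call on omitting any but I/R array B (up to 0.141). In TLR4-/- the Itgav call was lost on omitting any array but I/R array B (up to 0.133), and the Smurf1 call without I/R array C or sham array A or B (up to 0.0860). With only the compared groups in the fit, Itgav lost its call in TLR4-/- (0.0711) and in wild type (0.0531), Smurf1 in TLR4-/- (0.0668) and Ski in wild type (0.0609), and Ski also with trend and robust variance (0.0806). With wild-type sham array C together with TLR4-/- I/R array D left out, Itgav lost its call in TLR4-/- (0.1325) and in wild type (0.0612), and Ski in wild type (0.0890), whose difference in TLR4-/- passed only without sham array D (0.0423).

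Grn, Gas6, Vegfb and Bdnf differed little between I/R and sham. Grn, the lysosomal growth factor progranulin, had 11.60, 11.82 and 11.95 on the TLR4-/- I/R arrays, against 11.68, 11.62 and 11.73 on the TLR4-/- sham arrays. On the wild-type arrays Grn had 11.76, 11.84, 11.80 and 11.77 after I/R, against 11.64, 11.56, 11.64 and 11.75 after sham, so that the groups did not overlap but lay close. The differences were 0.11 in TLR4-/- (95% interval -0.12 to 0.35) and 0.14 in wild type (95% interval -0.06 to 0.35), with adjusted p of 0.6534 and 0.4144, so a change beyond 0.35 log2 units lay outside both intervals.

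Gas6, the TAM receptor ligand, had 9.15, 9.23 and 9.52 on the TLR4-/- I/R arrays, against 9.07, 9.22 and 9.29 on the TLR4-/- sham arrays, and 9.52, 9.49, 9.55 and 9.33 on the wild-type I/R arrays, against 9.61, 9.20, 9.08 and 9.43 on the wild-type sham arrays. Its groups overlapped, with differences of 0.11 in TLR4-/- (95% interval -0.20 to 0.42) and 0.15 in wild type (95% interval -0.12 to 0.41). Vegfb, a ligand of VEGFR1, had 7.06, 7.13 and 7.44 on the TLR4-/- I/R arrays, against 7.11, 7.30 and 7.07 on the TLR4-/- sham arrays, and 7.39, 7.27, 7.08 and 7.43 on the wild-type I/R arrays, against 7.43, 7.34, 7.00 and 7.04 on the wild-type sham arrays. These overlapped too, with differences of 0.05 in TLR4-/- (95% interval -0.26 to 0.37) and 0.09 in wild type (95% interval -0.18 to 0.36).

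Bdnf, the neurotrophin that acts through TrkB, was at background throughout. Values were 4.21, 4.30 and 4.11 on the TLR4-/- I/R arrays, against 4.31, 4.44 and 4.42 on the TLR4-/- sham arrays, and 4.05, 4.05, 4.19 and 4.07 on the wild-type I/R arrays, against 4.31, 4.08, 4.16 and 3.95 on the wild-type sham arrays. In TLR4-/- the I/R arrays lay below the sham arrays, with a difference of -0.18 that did not pass (adjusted p = 0.4126), and in wild type the groups overlapped (difference -0.03, adjusted p = 0.8961). After sham surgery all TLR4-/- values lay above the highest wild-type value, a difference of 0.27 (SE 0.11, limma adjusted p = 0.9203), all of it within background signal.

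Between genotypes 0 of the 10 factors passed the limma test after I/R, where 0.0201% of all genes were called, and 2 of them (Igf1 and Lif) had an unadjusted p under 0.05, against 8.47% of all genes. After sham surgery 0 of 10 passed, where 0.00502% of all genes were called, and 2 (Bdnf and Hbegf) had an unadjusted p under 0.05, against 5.24% of all genes. For the difference of the I/R changes 0 of 10 passed, where 0% of all genes were called, and 1 (Lif) had an unadjusted p under 0.05, against 3.82% of all genes. The largest differences after I/R besides Igf1 and Lif were 0.27 for Tgfb1 (95% interval -0.14 to 0.68), -0.17 for Gas6 (95% interval -0.46 to 0.11) and 0.15 for Osm (95% interval -0.52 to 0.81). A p that misses the threshold does not show that the genotypes were alike.

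The receptors of the 10 factors, 20 genes in a list set by name, were measured in full, and 11 were above background. After I/R, 1 rose and 6 fell in TLR4-/-, where 8.17% of all genes were called. The list median was -0.26, against -0.03 over all genes. In wild type 2 rose and 5 fell, where 9.78% of all genes were called. There the list median was -0.18, against -0.06 over all genes. No receptor was called between genotypes or in the difference of the changes.

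While Gas6 did not pass the test, 2 of its receptors moved in opposite directions. Axl, the TAM receptor induced in activated myeloid cells, had 7.70, 7.69 and 7.95 on the TLR4-/- I/R arrays, against 5.48, 5.95 and 5.18 on the TLR4-/- sham arrays, and 6.87, 7.69, 7.58 and 7.87 on the wild-type I/R arrays, against 6.22, 5.70, 5.32 and 5.90 on the wild-type sham arrays. It rose 4.75-fold in TLR4-/- (log2 2.25, SE 0.25, limma adjusted p = 1.651e-05) and 3.28-fold in wild type (log2 1.72, SE 0.22, limma adjusted p = 4.558e-05). Mertk, the TAM receptor of resting microglia, had 10.62, 10.62 and 10.69 on the TLR4-/- I/R arrays, against 11.47, 11.07 and 11.38 on the TLR4-/- sham arrays, and 10.75, 10.92, 10.74 and 10.54 on the wild-type I/R arrays, against 11.08, 11.19, 11.60 and 11.14 on the wild-type sham arrays. It fell by 0.66 in TLR4-/- (adjusted p = 0.009534) and by 0.52 in wild type (adjusted p = 0.0166), and neither Axl nor Mertk had overlapping groups. The Mertk call was lost in TLR4-/- without sham array A (adjusted p = 0.0588) and in wild type without I/R array D, without sham array C, or without wild-type sham array C together with TLR4-/- I/R array D (between 0.0517 and 0.0662). Tyro3, the TAM receptor of neurons, had a mean over all arrays below background, with group means of 4.56 to 4.80, and did not pass.

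Of the receptor chains of LIF and OSM, Lifr and Il6st fell and Osmr did not pass. Lifr, the LIF receptor chain, had 7.77, 6.84 and 7.38 on the TLR4-/- I/R arrays, against 8.17, 7.97 and 8.50 on the TLR4-/- sham arrays, and 7.22, 7.24, 7.59 and 7.17 on the wild-type I/R arrays, against 8.17, 8.14, 8.56 and 8.16 on the wild-type sham arrays. It was 1.84-fold lower in TLR4-/- (log2 -0.88, adjusted p = 0.0120) and 1.93-fold lower in wild type (log2 -0.95, adjusted p = 0.001954), without overlap in either genotype. Il6st, gp130, lay between 9.89 and 10.20 on the TLR4-/- I/R arrays, against 10.52 on all 3 TLR4-/- sham arrays, and between 9.92 and 10.15 on the wild-type I/R arrays, against 10.38 to 10.67 on the wild-type sham arrays. It fell in TLR4-/- and wild type, with changes of -0.49 (limma adjusted p = 0.0160) and -0.57 (limma adjusted p = 0.001459). Osmr, the chain specific to OSM, was below background on average (3.54). In TLR4-/- the Lifr call was lost without I/R array C or sham array D (adjusted p up to 0.0697), and the Il6st call without I/R array C or D or sham array A (up to 0.0825) or with only the compared groups in the fit (0.0535).

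**Figure D3:**
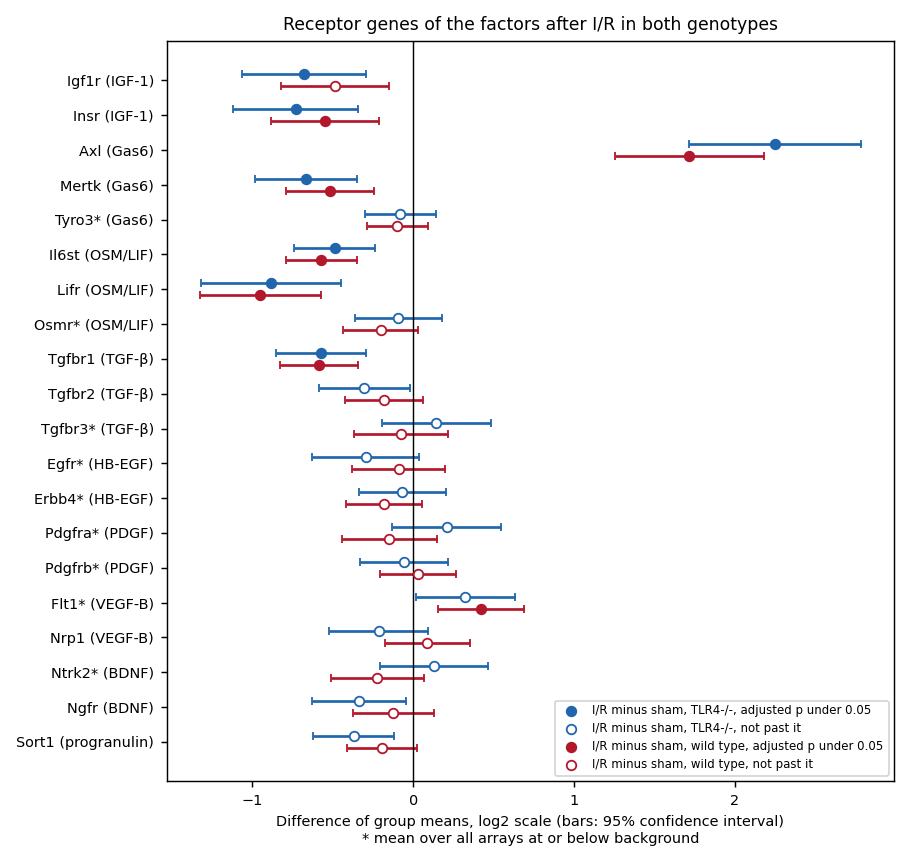
Change of each of the 20 receptor genes after I/R, as the I/R mean minus the sham mean on the log2 scale (horizontal axis), with 95% intervals, for TLR4-/- (blue) and wild type (red); the ligand stands in brackets, filled points passed a limma adjusted p under 0.05, and an asterisk marks a mean at or below background. Axl lies at 2.25 in TLR4-/- and 1.72 in wild type, and Lifr at -0.88 and -0.95.

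Of the receptors of IGF-1 and TGF-beta, Insr and Tgfbr1 fell in both genotypes and Igf1r in TLR4-/-, while Tgfbr2 and Tgfbr3 passed in neither. Insr, the insulin receptor, which can pair with IGF1R, fell by 0.73 in TLR4-/- (adjusted p = 0.0195) and by 0.55 in wild type (limma adjusted p = 0.0370). Igf1r fell by 0.68 in TLR4-/- (adjusted p = 0.0296) and had a wild-type difference of -0.49 (adjusted p = 0.0647), which passed without dim genes (0.0497) and without sham array B (0.0468). Tgfbr1, the signalling TGF-beta receptor chain, fell by 0.57 in TLR4-/- (adjusted p = 0.0118) and by 0.58 in wild type (adjusted p = 0.002938), while Tgfbr2, the ligand-binding chain, did not pass (-0.30 in TLR4-/- and -0.18 in wild type). The wild-type calls of Tgfbr1, Lifr, Il6st and Axl held in all alternatives run. The TLR4-/- call of Tgfbr1 was lost without I/R array C or D or sham array A (up to 0.0629), that of Igf1r without I/R array C or sham array B or D (up to 0.150), and that of Insr without sham array A, sham array D, I/R array C or I/R array D (up to 0.115). In wild type the Insr call was lost without any 1 of the I/R arrays, without sham array B or C, or without wild-type sham array C together with TLR4-/- I/R array D (up to 0.117).

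Flt1, the VEGF-B receptor, passed in wild type (log2 0.42, adjusted p = 0.0431) from means of 4.73 after I/R and 4.31 after sham, at or below background, and the call was lost without I/R array A, B or C or sham array A, B or C (up to 0.131), with only the compared groups in the fit (0.0759) and without wild-type sham array C together with TLR4-/- I/R array D (0.0765). Egfr and Erbb4, the HB-EGF receptors, Pdgfra and Pdgfrb, the PDGF receptors, and Ntrk2, the BDNF receptor TrkB, had means over all 14 arrays below background and did not pass, although the means of Pdgfrb in both TLR4-/- groups (4.76 and 4.82) and of Egfr in TLR4-/- sham (4.75) lay just above it. Nrp1, a VEGF co-receptor, Ngfr, the p75 neurotrophin receptor, and Sort1, which binds progranulin, were above background and did not pass in either genotype, with Sort1 differences of -0.37 in TLR4-/- and -0.19 in wild type (adjusted p of 0.0687 and 0.286).

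In the IGF axis, 13 genes were measured and 6 were above background, with 1 higher in TLR4-/- and 2 in wild type and none lower. Over all genes, 8.17% were called in TLR4-/- and 9.78% in wild type. Igf2r, the mannose-6-phosphate receptor that clears IGF-2, had 5.74, 6.38 and 6.02 on the TLR4-/- I/R arrays, against 4.65, 4.47 and 4.58 on the TLR4-/- sham arrays, and 6.33, 5.61, 6.23 and 6.31 on the wild-type I/R arrays, against 4.13, 4.45, 4.79 and 4.53 on the wild-type sham arrays. It rose by 1.48 in TLR4-/- (adjusted p = 0.0001362) and by 1.64 in wild type (limma adjusted p = 6.327e-06), without overlap. The sham means lay below background, with 0 of 3 TLR4-/- and 1 of 4 wild-type sham arrays above it, so the size of the change is uncertain in both genotypes. The TLR4-/- change is bounded only as at least 2.50-fold, and no bound was computed for wild type. Igfbp6, a binding protein that prefers IGF-2, had a difference of 0.53 in TLR4-/- (adjusted p = 0.117) and rose by 0.75 in wild type (adjusted p = 0.007714). Its wild-type sham mean of 4.69 lay below the background level, with 3 of 4 arrays above that level. Both wild-type calls, and that of Igf2r in TLR4-/-, held in all alternatives run.

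Of 17 genes that shed or process the factors, 14 were above background, and none rose in TLR4-/- and 1 in wild type. Over all genes, 8.17% were called in TLR4-/- and 9.78% in wild type. Rhbdf2, the partner of the HB-EGF sheddase ADAM17, had a difference of 0.54 in TLR4-/- (adjusted p = 0.0568) and rose by 0.51 in wild type (adjusted p = 0.0315). Its wild-type call was lost on omitting sham array C or D, any I/R array but B, or wild-type sham array C together with TLR4-/- I/R array D (up to 0.108), and a TLR4-/- call was gained without dim genes, with array weights or without I/R array B (adjusted p between 0.01547 and 0.0432).

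Among 28 other growth and trophic factors measured, 14 were above background, and 1 rose and 1 fell in each genotype. Over all genes, 8.17% were called in TLR4-/- and 9.78% in wild type. Hgf, hepatocyte growth factor, which signals through MET, had 6.49, 6.81 and 6.08 on the TLR4-/- I/R arrays, against 4.87, 5.05 and 4.83 on the TLR4-/- sham arrays, and 5.91, 6.35, 6.27 and 6.44 on the wild-type I/R arrays, against 4.73, 4.54, 4.52 and 4.61 on the wild-type sham arrays. It rose 2.91-fold in TLR4-/- (log2 1.54, limma adjusted p = 1.198e-05) and at least 2.85-fold in wild type (measured log2 change 1.64, limma adjusted p = 6.912e-07), where 0 of 4 sham arrays exceeded the background level and the bound takes that level in their place, and the I/R arrays stood above all sham arrays. Clcf1, another cytokine of the interleukin-6 family, fell by 0.60 in TLR4-/- (adjusted p = 0.00331) and by 0.61 in wild type (adjusted p = 0.0006604). The calls of Hgf and Clcf1 held in all alternatives run.

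**Figure D4:**
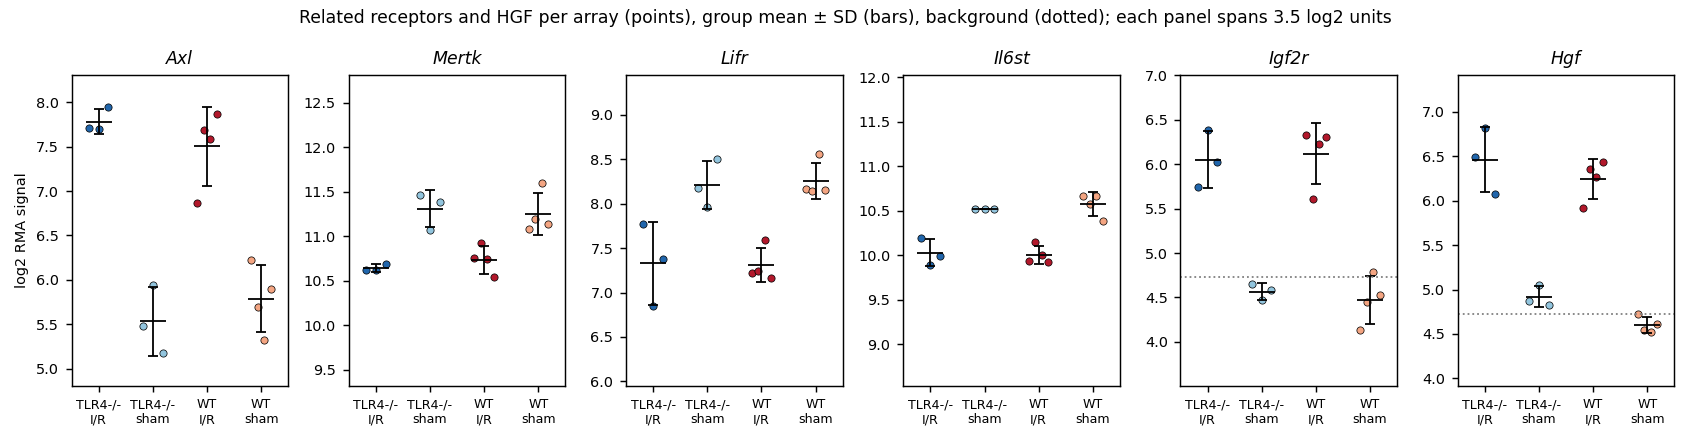
Log2 signal (vertical axis) of Axl, Mertk, Lifr, Il6st, Igf2r and Hgf on each of the 14 arrays, by genotype and surgery, with bars for the group mean ± SD (n = 3 for both TLR4-/- groups, n = 4 for both wild-type groups). Axl, Igf2r and Hgf stand higher on the I/R arrays of both genotypes than on the sham arrays, and Lifr, Il6st and Mertk stand lower.

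The genes whose level followed a called factor most closely over the 14 arrays, among 12260 other genes above background, are given as a description. For Igf1 they were Cd36, a scavenger receptor (Pearson r 0.97), Tpm2, a tropomyosin (0.96), and Gmnn, the replication inhibitor geminin (0.96). With the group means removed, r was 0.66, 0.63 and 0.71 for these genes. For Osm they were the poly(A) polymerase Tent5c (0.96), Socs3 (0.94) and Bcl3 (0.92), and with the group means removed r was 0.89, 0.85 and 0.80, so that arrays with more Osm than their group also had more of these transcripts. For Hbegf they were the transcription factor Foxo3 and the co-regulator Cited2 (0.91 each) and Rin3, an exchange factor for RAB5 (0.89), with 0.60, 0.47 and 0.03 after the group means were removed. For Pdgfa they were Rassf3 and the amino acid transporter Slc7a1 (0.88 each) and the SLAM family receptor Ly9 (0.87), with 0.74, 0.70 and 0.89. The 14 arrays share the same 4 groups, so much of each r follows the I/R difference. The genes were picked by r over these same arrays, so the values with group means removed are partly set by that choice.

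**Figure D5:**
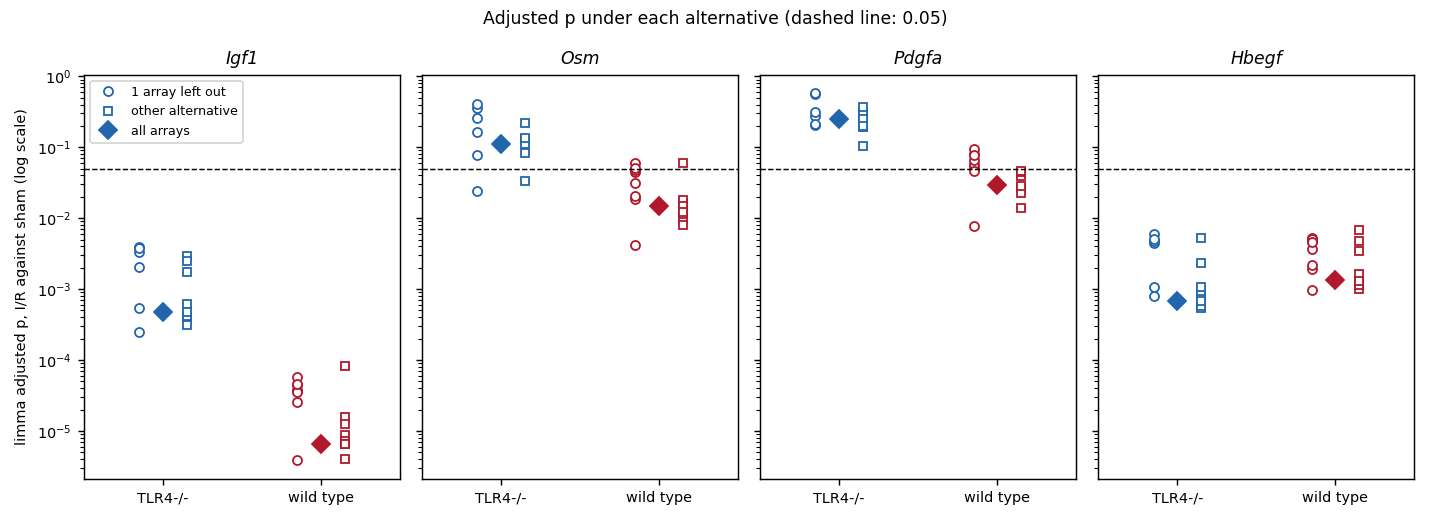
Limma adjusted p (vertical axis, log scale) of the I/R change of Igf1, Osm, Pdgfa and Hbegf in each genotype, with all arrays (diamond), with 1 array left out at a time (circles) and under the other alternatives (squares); the dashed line marks 0.05. Igf1 and Hbegf lie below the line throughout, while Osm and Pdgfa in wild type reach 0.0599 and 0.0933.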

How the data were processed

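Per the labels, total RNA of 14 samples of sorted microglia was hybridised to Affymetrix Mouse Gene 1.0 ST arrays, and the deposited table holds a log2 signal for every row on every array. These came from RMA as run in oligo (versions not given), per the submitters' processing notes. RMA brings arrays to a common distribution, so a change in total RNA is not visible. Of 35556 rows, 21789 carried 1 gene symbol, 1621 several and 12146 none; rows with several or none were left out. The row with the highest mean stood for each of the 999 genes with more than 1 row, which left 19938 genes. No detection call exists, so olfactory receptor genes gave the background level. Arrays have no depth, and their number limits the precision.

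A fit of all arrays with 4 group means (lmFit and eBayes of limma 3.58.1, R 4.3.3) was used, with Benjamini-Hochberg adjustment over all genes and calls at an adjusted p under 0.05. The fit was run on simulated data with known changes, and only the mean error of the estimated changes had to pass a limit. The noise was independent and drawn with the fit's own variances. The run thus checks the code and not whether the model suits these arrays. The factors and lists were chosen with earlier results of these data known. Named were every factor, every receptor, the genes called in another list (at most 6 per list) and, for each called factor, the 3 genes with the highest Pearson r. Measured genes of the lists that are not named were tested too and enter the list counts and medians. Listed genes without a row of their own were not analysed here. Promoters came from RefSeq (GRCm38.p6), and both the search for the factors and the motif shares leave out chromosome 18, where Hbegf lies. Sample letters in the titles were looked at for pairing: of 18 pairs of arrays with the same letter in different groups, 3 had deviations from the group means that correlated above 0.1 (range -0.10 to 0.28). Arrays with different letters were not compared in this way, so these values cannot decide whether the letters mark pairs. The main fit did not treat them as pairs. Scan dates were not used here. Alternatives were centred arrays, trend and robust variance, array weights, only the compared groups, no dim genes, the mean of a gene's rows, the letter as a block, and leaving out each array; leaving out wild-type sham array C together with TLR4-/- I/R array D, and the alternatives for pathway genes, were added after seeing the data.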

Additional observations from a re-analysis of the deposited data

Results flagged for a closer look

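Among 20 combinations of a factor and a group of 4 arrays, 1 had an array far from the others: wild-type I/R array C read 4.19 for Bdnf, where the next array read 4.07, a gap of 0.842 of the group's range. Chance alone does this in about 1 group in 20, and all of these Bdnf values lie below the background level.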

How the results depend on the processing

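The calls of Igf1 and Hbegf in both genotypes held under all alternatives. Over 800 alternative values of 50 factor changes, 753 kept their direction and side of the threshold, 9 lost a call (Pdgfa and Osm in wild type), 2 gained one (Osm in TLR4-/-) and 36 changed sign, none of them a called change. With wild-type sham array C and TLR4-/- I/R array D left out, the I/R changes were 1.48 and 1.77 for Igf1 and -1.19 and -0.94 for Hbegf in TLR4-/- and wild type. The letters as a replicate block changed no call of a factor (wild-type Igf1 1.78, adjusted p = 1.271e-05; Pdgfa 0.0454). Of the named pathway genes, it lost the calls of Smurf1 in TLR4-/- (0.0520) and of Ski (0.0553) and Flt1 (0.0648) in wild type, gained that of Pim1 in wild type (0.0421) and changed no other. Bdnf and Lif have no value without dim genes, and the difference of changes none with only the compared groups. The cause of the changes listed here was not tested. The number of factors called was 2 to 3 in TLR4-/- and 2 to 4 in wild type (2 without I/R array D) with 1 array left out. Genes called numbered 970 to 1497 in TLR4-/- (970 without sham array A, 1071 without I/R array C) and 1344 to 1962 in wild type. For genotypes after I/R, 4 genes were called with all arrays, 7 with array weights, 1 without dim genes, 0 with only the compared groups, with the block or with both arrays out, and 0 to 3 with 1 array out. For genotypes after sham the count was 1, with 2 under trend and robust variance, array weights or the block, 0 with only the compared groups, 10 with both arrays out, and 0 to 10 with 1 array out (10 without wild-type sham array C). For the difference of changes it was 0, with 0 to 1 when 1 array was out (1 without wild-type sham array C). Sign changes outside single omissions were small: with array weights, Bdnf in wild type became 0.000828 and Grn between genotypes after I/R 0.0137; with both arrays out, Vegfb in TLR4-/- became -0.0638; with centred arrays, Lif and Grn between genotypes after sham became -0.0375 and -0.0117; with the block, the difference of changes became 0.0559 for Vegfb and 0.0211 for Gas6. With 1 array out, ranges that crossed 0 were -0.0730 to 0.193 for Tgfb1 and -0.0638 to 0.125 for Vegfb in TLR4-/-, and -0.0881 to 0.0319 for Bdnf in wild type. Between genotypes after I/R they were -0.0281 to 0.154 for Pdgfa, -0.00210 to 0.210 for Hbegf, -0.113 to 0.508 for Osm and -0.0841 to 0.0920 for Grn. After sham they were -0.0276 to 0.0550 for Lif, -0.114 to 0.0328 for Vegfb and -0.00149 to 0.0616 for Grn. For the difference of changes they were -0.560 to 0.108 for Osm, -0.156 to 0.0328 for Vegfb, -0.111 to 0.0650 for Grn and -0.143 to 0.0495 for Gas6. Of 32 called changes of pathway genes, 16 held under all alternatives, 16 lost the call under some, and 0 changed sign.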
